A study of Mus musculus with 6 samples.

Results

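The cytosolic ribosomal protein genes were chosen by symbol: Rpl or Rps followed by a number, with no more than 1 letter (a, l, x, y or p) after it, together with Rplp0, Rplp1, Rplp2 and Rpsa. Names that mark a pseudogene (-ps) and the Rps6k kinases were left out. Of the 55335 genes in the files, 83 matched. The 77 genes that reached 10 CPM in at least 1 of the 6 libraries were kept as members. CPM is the number of UMIs (unique molecular identifiers, each 1 counted RNA molecule) per 1000000 UMIs of the library. The members comprised 32 genes of the small 40S subunit and 45 of the large 60S subunit. The choice used levels only to drop genes counted below this threshold in every library, and used no difference between groups.

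Each cytosolic ribosome carries 1 copy of nearly every ribosomal protein, so these genes are made in near-equal amounts of protein and are among the most abundant messages of a cell. Their messages are known in mammals as TOP messages: they begin with a C followed by an unbroken run of pyrimidines (C or T), through which the mTOR pathway and the RNA-binding protein Larp1 adjust their translation and stability. In the intestine, crypt stem cells and their dividing offspring make ribosomes at a high rate, and enterocytes, the absorptive cells of the villus, are their non-dividing descendants.

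RNA was counted in single cells of intestinal organoids, which are cultured epithelial structures grown here from single cells of wild-type C57BL/6 mice aged 8 weeks. The day-4 groups, with 1 library each, were the RXR antagonist (labelled RXRi, 5 µM, a blocker of the retinoid X receptor), all-trans retinoic acid (10 µM, the active form of vitamin A), vitamin A-free medium, and DMSO vehicle. Day-1 DMSO vehicle had 2 libraries. The design text names 2 mice, and the labels tie no library to a mouse, nor do they say that the day-1 libraries were separate cultures. All groups began in a medium that held Wnt3a-conditioned medium, the ROCK inhibitor Y-27632 (10 µM) and the GSK3B inhibitor CHIR99021 (3 µM). The switch to ENR medium came on day 3, with a second dose of compound, so time and medium cannot be told apart between day 4 and day 1. Whether the vitamin A-free organoids received DMSO is not stated.

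After likely doublets were removed, 3468 to 5327 cells and 47258161 to 62567817 UMIs remained per library. A member had between 307 and 324902 UMIs in a library. Pairs of libraries shared between 2 and 17 cell barcodes. Of the marker lists, the 8 fibroblast, 5 endothelial, 7 immune and 5 red blood cell genes were all below 10 CPM in every library, and enterocyte, goblet and stem markers were present. With 1 library per day-4 group, those comparisons have no replicate and no test, and intervals cover counting error only.

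The start of the gene is where members share a feature that the choice did not use, and 8 windows are printed here because they show it present, weak and absent. RefSeq windows (GRCm38.p6) were found for 57 of the 77 members. A run of 8 or more C or T bases on the gene's own strand, overlapping the stretch from 5 bases before to 10 bases from the annotated start, was present in 25 of these 57 (43.9%), against 13.04% of 27025 gene symbols. The median longest run was 7 bases in members and 4 bases over all symbols. Each line gives 30 bases, from 15 before the start, with a run of 8 or more in capitals.
Rpl7a, chr2:26910792-26910821, plus strand: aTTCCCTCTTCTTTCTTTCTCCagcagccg
Rpl35, chr2:39005117-39005146, minus strand: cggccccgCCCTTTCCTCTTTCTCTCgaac
Rps18, chr17:33955651-33955680, minus strand: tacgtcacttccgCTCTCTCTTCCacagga
Rplp2, chr7:141447636-141447665, plus strand: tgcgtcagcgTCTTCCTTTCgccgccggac
Rps27, chr3:90213634-90213663, minus strand: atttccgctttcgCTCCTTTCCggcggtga
Rps27l, chr9:66946071-66946100, plus strand: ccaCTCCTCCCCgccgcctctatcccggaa
Rps4x, chrX:102189377-102189406, minus strand: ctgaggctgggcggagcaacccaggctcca
Rplp0, chr5:115559452-115559481, plus strand: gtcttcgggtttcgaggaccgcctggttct
In Rps27 the run begins 2 bases before the annotated start and crosses it, as the printed windows of Rpl7a, Rpl35, Rps18 and Rplp2 also do. In Rps27l, its paralog, the run of 9 begins 12 bases before the start and ends upstream of it. Rps4x and Rplp0 had longest runs of 3 and 4 bases at these annotated starts. A match is only a run of letters, and annotated starts may lie some bases from those used in these cells.

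Levels of the members covered a wide range. Rpl8, a protein of the 60S subunit, was among the highest, at 5022 CPM under the RXR antagonist, 2852 under retinoic acid, 6154 in vitamin A-free medium, 5444 in day-4 vehicle, and 4879 and 4536 in the day-1 libraries. It was lowest under retinoic acid and highest in vitamin A-free medium. Rpl8, Rpl32, Rps3 and Rplp0 had mean levels of 4814, 4665, 4652 and 4369 CPM over the 6 libraries. Per kilobase of transcript, Rpl32 came first (9022 CPM per kilobase). At the other end stood Rpl21, with a mean of 9.57 CPM, and Rpl17, Rpl10, Rpl7a and Rps7, with means of 9.95, 11.1, 12.7 and 13.5. These 5 were also the lowest per kilobase, at 10.6 to 16.5 CPM. Counting is from the 3′ end, so levels need not scale with length.

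The low members were mostly those whose 3′ end is repeated elsewhere in the transcriptome. For each member, all 50-base stretches of the last 300 bases of the annotated principal transcript were searched in the transcripts of every other gene in GENCODE M21. In Rpl21 100% of them were found in other genes, 67 in number, and in Rpl10 100%, in 13 other genes. The 22 members that shared 80% or more had a median mean level of 24.6 CPM, and 17 of the 22 were under 100. The 31 members that shared under 40% had a median of 625 CPM, 7 of them under 100 and 13 at 1000 or more. Across the 77 genes, which are not independent replicates, Spearman's rho between the shared percentage and the mean level was -0.47, and -0.33 per kilobase. How the authors' counting treated reads that fit several genes is not given in the sources used here, so low levels of such members are uncertain. Exceptions ran both ways: Rpl11, with no shared stretch, averaged 18.3 CPM, and Rpl35, with 96.0% shared, averaged 311. The 309 genes named as Rpl or Rps pseudogenes took between 0.0370% and 0.0817% of UMIs in a library.

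**Figure D1:**
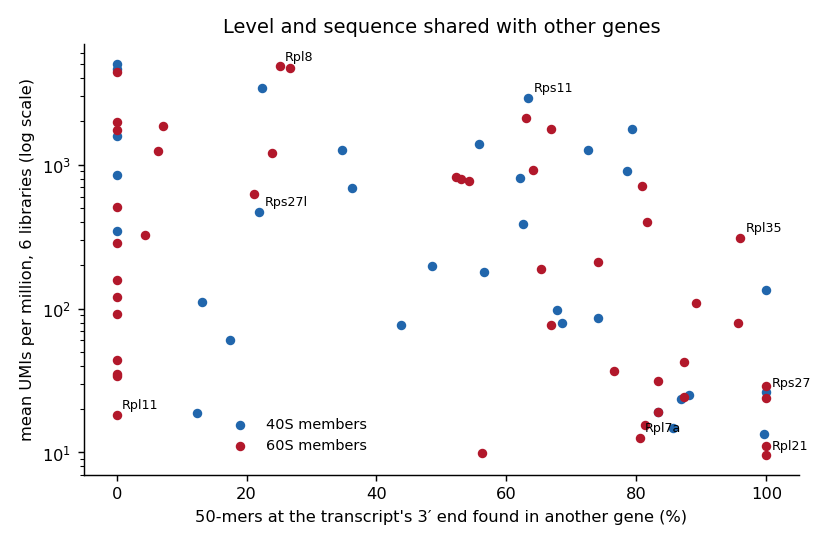
Each point is 1 of the 77 members, blue for 40S and red for 60S. The x axis gives the percent of 50-base stretches at the transcript's 3′ end that another annotated gene also holds, and the y axis the mean CPM over the 6 libraries on a log scale. None of the 22 members that share 80% or more reached 1000 CPM.

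Near the threshold, Rpl21 entered with a highest value of 11.7 CPM, Rpl17 with 12.7 and Rpl10 with 14.4. Just outside were Rpl32l, annotated as a processed pseudogene, with a highest value of 8.59 under retinoic acid, and Rpl23a, with 7.32 in day-1 library 1. Rpl6l did not pass 0.264 CPM in any library, and Rpl3l, Rpl10l and Rpl39l, which in mice are known mainly from striated muscle or testis, did not pass 0.0674. Rps3a1, the gene for a core 40S protein, is left out only by its spelling. It had 1798 CPM under the RXR antagonist, 985 under retinoic acid, 2492 in vitamin A-free medium, 2105 in day-4 vehicle, and 1735 and 1622 in the day-1 libraries.

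Together the members took 6.16% of all UMIs under the RXR antagonist, 3.72% under retinoic acid, 7.86% in vitamin A-free medium, 7.02% in day-4 vehicle, and 6.70% and 6.11% in the day-1 libraries. Retinoic acid stood lowest and vitamin A-free medium highest. The exact 95% binomial intervals were narrow, for example 3.720% to 3.730% under retinoic acid, so the SD of 0.41 percentage points between the 2 day-1 libraries was far above counting error and is the only measure of spread between libraries. Over single cells, the median share under retinoic acid was 3.24% (quartiles 1.91% and 4.84%), against 7.07% in day-4 vehicle (quartiles 6.00% and 8.27%). The ratio of 40S to 60S UMIs was 0.838 under the RXR antagonist, 0.897 under retinoic acid, 0.862 in vitamin A-free medium, 0.867 in day-4 vehicle, and 0.849 and 0.851 at day 1. The order of levels among members hardly moved: Pearson's r of log2 levels over the 77 genes was between 0.992 and 0.999 for every pair of libraries. The share of UMIs from mitochondrially encoded genes was 1.83% under the RXR antagonist, 4.34% under retinoic acid, 3.66% in vitamin A-free medium, 3.58% in day-4 vehicle, and 3.12% and 2.86% at day 1. Its part in the members' levels was not tested, and outside these genes the members' shares were 6.27%, 3.89%, 8.16% and 7.29% in the 4 day-4 libraries in the same order.

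Under retinoic acid the members were lower than in day-4 vehicle, most of them by 1.5-fold or more. The median log2 ratio over the 77 was -0.92, a level 1.89-fold lower, against a median of -0.27 over the 7976 genes at 10 or more CPM in either library. All 77 ratios were below 0, and 73 members were at least 1.5-fold lower, against 20.9% of all genes, while 0 were 1.5-fold higher, against 6.03%. At least 2-fold lower were 21 members, against 5.24% of all genes. The size depended on the scaling: under TMM scaling, which moved the median of all genes to 0.082, the members' median was -0.55 and 34 were 1.5-fold lower, against 7.62% of all genes. Under DESeq2 size factors it was -0.51, with 24 lower, against 6.69%. The 40S and 60S members had the same median of -0.92. The 16 enterocyte markers summed to 119547 CPM under retinoic acid and 49681 CPM in vehicle, with 15 of 16 at 10 CPM or more in both. Retinoic acid against vehicle exceeded the gap between the day-1 libraries in 76 of 77 members, against 84.1% of all genes. In sums over a library, fewer cells of a type and less RNA per cell cannot be told apart.

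Rps26, a 40S protein near the mRNA exit channel (chr10:128624534-128626747, minus strand, GRCm38), and Rps19 had the lowest log2 ratios, at -1.31 and -1.29. Their order was not stable: with each cell weighted equally they were at -1.30 and -1.33. Rps26 stood at 191 CPM under retinoic acid, against 480 in day-4 vehicle, 2.52-fold lower (95% interval 2.47 to 2.58). Rps19, needed for 40S maturation and mutated in human Diamond-Blackfan anaemia, stood at 83.8 under retinoic acid and 212 in vehicle, 2.53-fold lower (2.45 to 2.62). Both were lower under retinoic acid than in any other library, including the RXR antagonist (352 and 153) and the day-1 libraries (404 and 385 for Rps26, 224 and 181 for Rps19). Rpl13a, a 60S protein, stood at 234 under retinoic acid and 561 in vehicle, and its log2 ratio was -1.24. The other members among the 6 lowest were Rps18, Rps15a and Rpl27a, with log2 ratios of -1.20, -1.19 and -1.18. Abundant members were lower too, with log2 ratios of -0.93 for Rpl8 and -1.10 for Rpl32. Of the acidic stalk, which recruits elongation factors to the 60S subunit, Rplp0, Rplp1 and Rplp2 had ratios of -0.71, -0.81 and -1.01.

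A pair of 40S paralogs stood apart from the rest under retinoic acid. Rps4l, annotated as a transcribed processed pseudogene (chr6:148354656-148355598, plus strand), had 46.0 CPM under retinoic acid and 46.5 in vehicle, a ratio of 0.989 (95% interval 0.936 to 1.05). Its parent Rps4x, on the X chromosome, had 530 under retinoic acid and 964 in vehicle, a log2 ratio of -0.86. Rps27l, known in human and mouse cells as a target of p53 (chr9:66946086-66949516, plus strand), had 314 under retinoic acid and 357 in vehicle, a log2 ratio of -0.18. Its parent Rps27 had 16.2 and 30.5 CPM in the same order, a log2 ratio of -0.75. All 50-base stretches at the 3′ end of Rps27 are held by other genes, against 21.9% of those of Rps27l, so the Rps27 level is uncertain. Under TMM scaling the log2 ratios of Rps4l and Rps27l were above 0, at 0.35 and 0.21.

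Under the RXR antagonist the members lay slightly below vehicle. The median log2 ratio was -0.28, against 0.011 over 8387 genes, and 73 of 77 ratios were below 0. At 1.5-fold, however, only 1 member was higher, against 14.6% of all genes, and 1 was lower, against 15.4%. At a ratio of 5 to 4 as the threshold, 24 members were lower, against 25.5%. The gap was larger than that between the day-1 libraries in 58 of 77 members, and in 80.5% of all genes. The member that was higher was Rps4l, at 72.5 CPM under the RXR antagonist and 46.5 in vehicle, a ratio of 1.56 (95% interval 1.48 to 1.65), with 74.2 and 76.2 in the day-1 libraries. This lay close to the threshold, and with all barcodes kept 0 members were 1.5-fold higher. The member that was lower was Rpl5, which with Rpl11 and 5S rRNA forms a particle that can bind the p53 regulator Mdm2 (chr5:107900502-107909005, plus strand). Rpl5 had 25.01 CPM under the RXR antagonist, 25.3 under retinoic acid, 48.1 in vitamin A-free medium, 42.9 in vehicle, and 36.3 and 33.9 at day 1. It was 1.72-fold lower under the RXR antagonist than in vehicle (95% interval 1.604 to 1.84). Rplp0, with 5257 under the antagonist and 4876 in vehicle, had a log2 ratio of 0.11, the second highest, while Rplp1 and Rplp2 had -0.29 and -0.27.

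In vitamin A-free medium 76 of 77 members were above vehicle, but by little. The median log2 ratio was 0.17, against 0.081 over 8180 genes. No member reached 1.5-fold in either direction, against 1.34% of all genes in each. At a ratio of 5 to 4, 4 members were higher, against 9.58%. The difference from vehicle exceeded the gap between the day-1 libraries in 38 of 77 members, against 58.7% of all genes. The day-1 libraries differed from each other by as much, with a median log2 ratio of -0.18 of library 2 over library 1 and 70 of 77 members lower, so the median difference in vitamin A-free medium was no larger than that between 2 vehicle libraries. Rps12 and Rps15 of the 40S subunit were among the highest ratios, at 0.34 each, and Rpl29 the lowest, at -0.055. Under TMM scaling the median of the members was 0.025.

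Set directly against retinoic acid, the RXR antagonist library was higher in 76 of 77 members, with a median log2 ratio of 0.66, against 0.33 over 8191 genes. At least 1.5-fold higher were 51 members, against 31.6% of all genes, and 0 were 1.5-fold lower, against 14.0%. Rpl13a had 498 CPM under the antagonist and 234 under retinoic acid, a log2 ratio of 1.07. Rps2, a 40S protein at the mRNA entry, had 1892 and 923 in the same order, a log2 ratio of 1.03. Under TMM scaling the median was 0.35, with 4 members 1.5-fold higher, against 16.9% of all genes, and under DESeq2 size factors 0.31, with 3, against 15.9%. Rpl5 was the exception, with a log2 ratio of -0.016. This comparison shares both libraries with those against vehicle and adds no independent library.

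**Figure D2:**
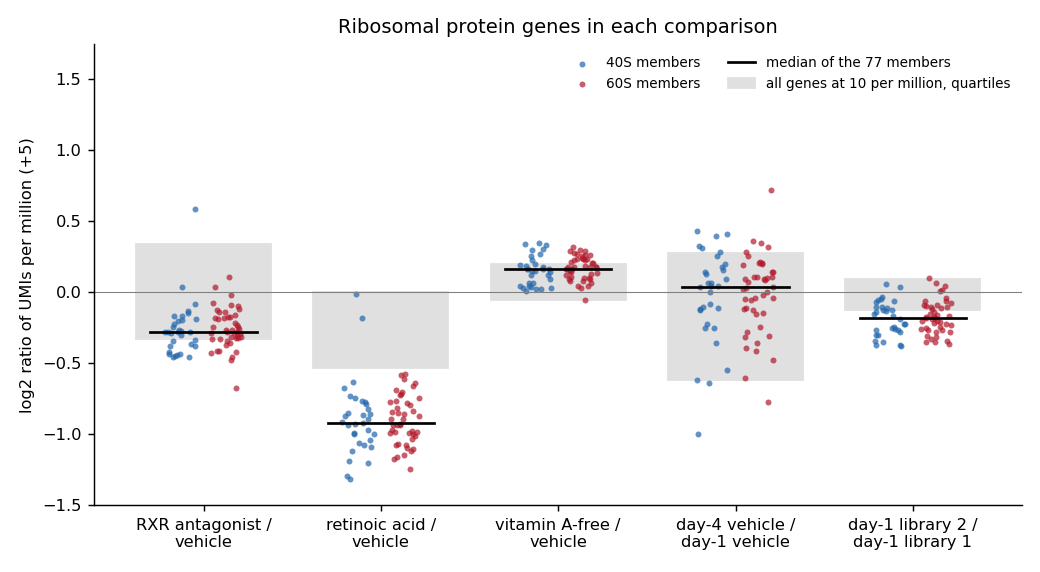
Each point is the log2 ratio of CPM (with 5 added) of 1 member in 1 comparison, blue for 40S and red for 60S. Black lines are medians of the 77 members and grey boxes span the quartiles of all genes at 10 or more CPM. The median stands at -0.92 for retinoic acid, and at -0.28, 0.17, 0.040 and -0.18 in the others (day 4 against day 1 at equal totals). It lies outside the grey box for retinoic acid and also for day-1 library 2 over library 1, with Rps4l as the lone high point under the RXR antagonist.

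The lower level under retinoic acid was not seen at the same size in every kind of cell. Cells of all libraries were clustered together without any ribosomal protein gene, and clusters were named only from marker lists. In the stem-like clusters, led by Olfm4, Lgr5 and Smoc2, the members took 8.17% of UMIs under retinoic acid (440 cells), 9.03% in vitamin A-free medium (1589 cells) and 8.66% in vehicle (997 cells). There the median log2 ratio of retinoic acid to vehicle was -0.13, and 0 of 77 members were 1.5-fold apart in either direction, against 2.72% of all genes lower and 0.943% higher. In the goblet-like cluster, led by Zg16, Spink4, Fcgbp and Muc2 with 4 Paneth cell genes among its 10 leading genes, the share was 8.23% under retinoic acid (108 cells), against 8.82% in vehicle (160 cells). The median log2 ratio was -0.18, 6 of 77 members were 1.5-fold lower, against 7.59% of all genes, and 0 were higher, against 9.66%. In vitamin A-free medium 0 members were 1.5-fold apart from vehicle in either class, against 0.571% of all genes higher and 0.333% lower in stem-like cells and 3.16% higher and 2.63% lower in goblet-like cells.

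In a further shared cluster, led by Stc2 and Ddit4, members took 7.18% under retinoic acid (190 cells), against 8.25% in vehicle (262 cells). Most cells of the retinoic acid library, however, lay in clusters that held almost no cells of another library. The cluster led by Fabp6, the ileal bile acid binding protein, held 2693 of them, and members took 3.77% of its UMIs. The cluster led by Gda and Apoa1 held 1646, and members took 1.73%. Vehicle cells were instead found mostly in a cluster led by Rbp7 (1437 cells, members at 7.07%, with 7.51% in vitamin A-free medium) and in one led by Ctrb1 and Reg1 (1645 cells, members at 5.703%, with 6.38% in vitamin A-free medium). These clusters stayed unnamed, since fewer than 3 markers of any list were among their leading genes. Clusters of 1 library may be that library and not a kind of cell, so the low levels in them and the treatment cannot be told apart.

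In each day-4 library, the bins of cells with the most enterocyte marker RNA had a smaller share of member UMIs than those with the least. The cells of a library were ordered by the share of 16 enterocyte genes, among them Alpi, Apoa1, Fabp1 and Sis, in UMIs outside the members, and cut into 5 equal bins. Under retinoic acid the members took 7.24% of UMIs in the lowest bin and 1.92% in the highest, where enterocyte genes held 3.42% and 17.2% of the rest. In vitamin A-free medium the members took 9.26% and 6.09%, and in vehicle 8.80% and 5.21%. Under the RXR antagonist, where enterocyte genes held only 0.0710% to 2.55%, the members took 6.37% and 5.92%. Bins of near enterocyte share in the retinoic acid and vehicle libraries were set in pairs, of which the first was less closely matched. The lowest bin under retinoic acid had 3.42% enterocyte UMIs and 7.24% member UMIs, against 4.31% and 7.05% in the middle bin of vehicle. The second bin of vehicle had 1.03% and 7.93%, so the first pair shows no clear direction. The second bin under retinoic acid had 11.9% and 3.77%, against 12.1% and 5.21% in the highest bin of vehicle. With the enterocyte genes left out of the total, the member shares of the first pair were 7.47% and 7.34%, and those of the second pair 4.26% and 5.88%. Cells are not replicates, and these values are a description of 1 library each.

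**Figure D3:**
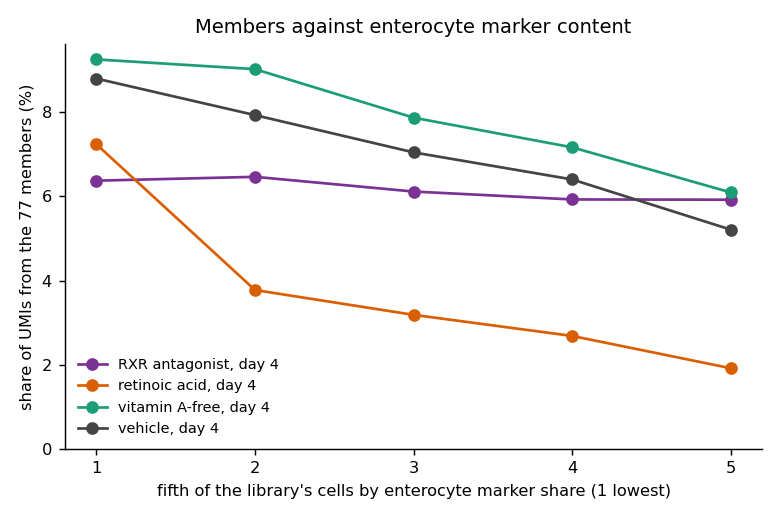
The share of UMIs from the 77 members (y axis, percent) in 5 bins of the cells of each day-4 library, ordered by enterocyte marker share (x axis, lowest first). Each point sums 693 to 1027 cells. The retinoic acid line runs between 7.24% and 1.92% and lies below the others from the second bin on, and the RXR antagonist line stays between 5.92% and 6.46%.

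In the goblet-like cluster the members were lowest under the RXR antagonist. Members took 5.47% of UMIs there under the RXR antagonist (126 cells), against 8.82% in day-4 vehicle (160 cells) and 7.08% and 6.74% in the day-1 libraries (147 and 281 cells). The median log2 ratio to vehicle was -0.73, against -0.22 over 8648 genes, and 62 of 77 members were at least 1.5-fold lower, against 29.4% of all genes, and 0 were higher, against 12.6%. These goblet-like cells had a median of 10068.5 UMIs under the RXR antagonist and 7662 in vehicle, and the part of depth was not tested. The cluster was also led by Paneth cell genes, and the part of its mix of cells in each library was not tested. Rpl11, Rpsa and Rpl5 were among the lowest, with log2 ratios of -1.28, -1.28 and -1.26, and Rps4l alone was above vehicle, at 0.49. Such single ratios rest on few UMIs: Rpl5 had 25 under the RXR antagonist and 71 in vehicle, and Rps4l 72 and 51. Rpl11 was at only 8.73 CPM under the RXR antagonist, against 28.4 in vehicle. Only 45 cells of the RXR antagonist library lay in the stem-like clusters, too few to compare. Its remaining cells lay mostly in clusters of its own: members took 7.22% in the one led by Nupr1 and Dmbt1 (1302 cells) and 5.52% in the one led by Ly6d and Sprr2f (1913 cells), whose leading genes included 2 regenerative markers. Summed regenerative markers stood at 9066 CPM under the RXR antagonist, 218 under retinoic acid, 273 in vitamin A-free medium, 197 in day-4 vehicle, and 1727 and 2223 at day 1. Their part in the members' levels was not tested.

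Enteroendocrine-like cells, the hormone-making cells led by Cck, Chgb and Gcg, had low member shares in every library with 50 or more of them. The share was 6.14% in vitamin A-free medium (79 cells), 5.55% in day-4 vehicle (55 cells), and 3.09% and 3.35% in the day-1 libraries (148 and 388 cells). At day 4 the cluster led by Ctrb1 and Reg1 was close to them, at 6.38% in vitamin A-free medium and 5.703% in vehicle. The median depth of the enteroendocrine-like cells was also low, at 2446 to 5495 UMIs per cell across these libraries, and its part was not tested. In the day-1 cycling cluster, led by Cenpf, Ube2c and Ccnb1, the share was 6.73% and 6.26%.

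**Figure D4:**
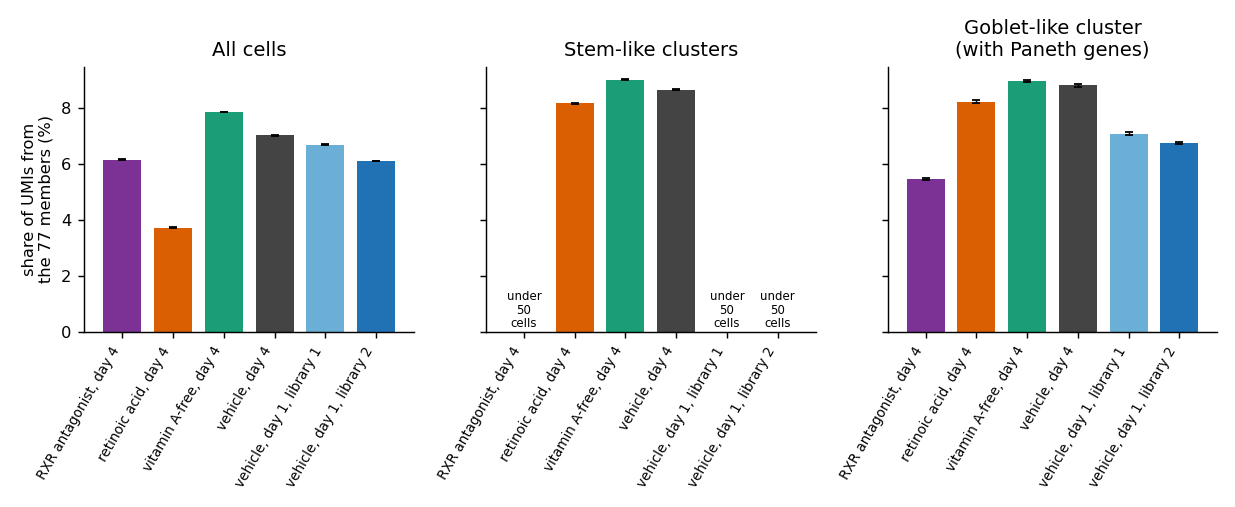
Bars give the percent of UMIs from the 77 members in all cells, in the stem-like clusters and in the goblet-like cluster of each library, with exact binomial 95% intervals as error bars (counting error only). Libraries with under 50 cells in a class have no bar. Retinoic acid is at 3.72% over all cells but 8.17% in stem-like cells, and the RXR antagonist is lowest in the goblet-like cluster, at 5.47%.

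Between day 4 and day 1 of vehicle culture the members changed little as a group, and a few changed in opposite directions. By edgeR's quasi-likelihood test with TMM scaling (Benjamini-Hochberg adjustment over 17592 genes), 9 of 77 members were higher at day 4, against 17.3% of all genes, and 3 were lower, against 16.9%. The median log2 fold change was 0.22 over the members and -0.028 over all genes. The lone day-4 library is assumed to vary like the day-1 pair, which rests on 1 residual degree of freedom. With scaling to equal total UMIs 1 member was higher and 6 were lower, against 13.1% and 22.3% of all genes, and the members' median was 0.041. With no filter on low counts 1 was higher and 1 lower, against 7.46% and 6.44%. Set against only 1 day-1 library, the median log2 ratio (TMM scaling, pseudocount added) was 0.12 against library 1 and 0.31 against library 2.

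Of the members that rose, Rps4x, the 40S protein encoded on the X chromosome, had 964 CPM at day 4, against 738 and 688 at day 1 (log2 fold change 0.61, SE 0.14, adjusted p = 0.0220). Rplp0 had 4876 at day 4, against 3870 and 3772 at day 1 (log2 fold change 0.53, SE 0.13, adjusted p = 0.0230). Day 4 stood above both day-1 libraries in each of these genes. Rps12, Rps20, Rpl18, Rpl30 and Rps3 also rose, by 0.60, 0.58, 0.55, 0.50 and 0.49 on the log2 scale. None of these 7 passed the test at equal totals or with no filter on low counts.

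The members that fell included both paralogs. Rps27l had 357 CPM at day 4, against 752 and 683 at day 1, and fell by 0.83 on the log2 scale (SE 0.16, adjusted p = 0.0118). Rps4l had 46.5 at day 4, against 74.2 and 76.2 at day 1, and fell by 0.52 (SE 0.15, adjusted p = 0.0418). Of their parents, Rps4x rose, as given above, and Rps27, with 30.5 at day 4 and 27.2 and 22.2 at day 1, did not pass the test (log2 fold change 0.48, SE 0.18, adjusted p = 0.0847). The third that fell was Rpl31, a 60S protein, with 34.7 at day 4, against 67.8 and 57.5 at day 1, and a log2 fold change of -0.68 (SE 0.17, adjusted p = 0.0295). All 3 passed at equal totals too, and with no filter on low counts Rps27l alone did. In the goblet-like cluster, which held cells at both days, Rps27l was at 466 CPM at day 4, against 845 and 767 at day 1, so it was lower within this class as well. Of 2 other p53 targets, Cdkn1a rose, with 379 at day 4, against 152 and 230 at day 1 (log2 fold change 1.17, SE 0.25, adjusted p = 0.0161), and Mdm2 did not pass the test (log2 fold change 0.13, SE 0.17, adjusted p = 0.578).

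The genes that build ribosomes fell over time. Of 50 ribosome assembly genes tested, 48 fell and 0 rose by edgeR, against 16.9% and 17.3% of all genes, with a median log2 fold change of -1.31. Lyar, a nucleolar growth regulator, had 106 CPM at day 4, against 487 and 361 at day 1, and fell by 1.82 (SE 0.23, adjusted p = 0.00396). Ncl, the abundant nucleolar protein nucleolin, had 672 at day 4, against 2594 and 2105 at day 1, and fell by 1.63 (SE 0.19, adjusted p = 0.00310). Both lay far below either day-1 library at day 4. Of 14 genes of RNA polymerase I, which makes ribosomal RNA, and of its transcription factors such as Ubtf and Taf1d, 9 fell and 0 rose. Of 78 mitochondrial ribosomal protein genes 44 fell and 0 rose. Of 29 genes listed as initiation factors, among them the repressors Eif4ebp1 and Eif4ebp2, 20 fell and 0 rose. Of 21 elongation and TOP genes 7 rose and 2 fell. Eef1a1, the elongation factor that brings aminoacyl-tRNA, was among those that rose. It had 10920 CPM at day 4, against 6265 and 6103 at day 1 (log2 fold change 1.00, SE 0.12, adjusted p = 0.00324 by edgeR). The elongation and TOP list also holds initiation factors (Eif3e, Eif3f, Eif3h, Eif3k, Eif3l, Eif3m, Eif4b and Eif4a2). These lists therefore do not separate initiation from elongation. At equal totals Eif4a2 had a log2 ratio of 0.79, and the elongation factor Eef1d -0.98. The median log2 ratio of the elongation and TOP list was then -0.030, against -0.18 over all genes. Of its 21 genes, 4 were 1.5-fold higher, against 14.9% of all genes, and 4 were lower, against 26.8%. Cycling cell markers summed to 1526 CPM at day 4, against 4391 and 3818 at day 1, and their part in these changes was not tested.

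**Figure D5:**
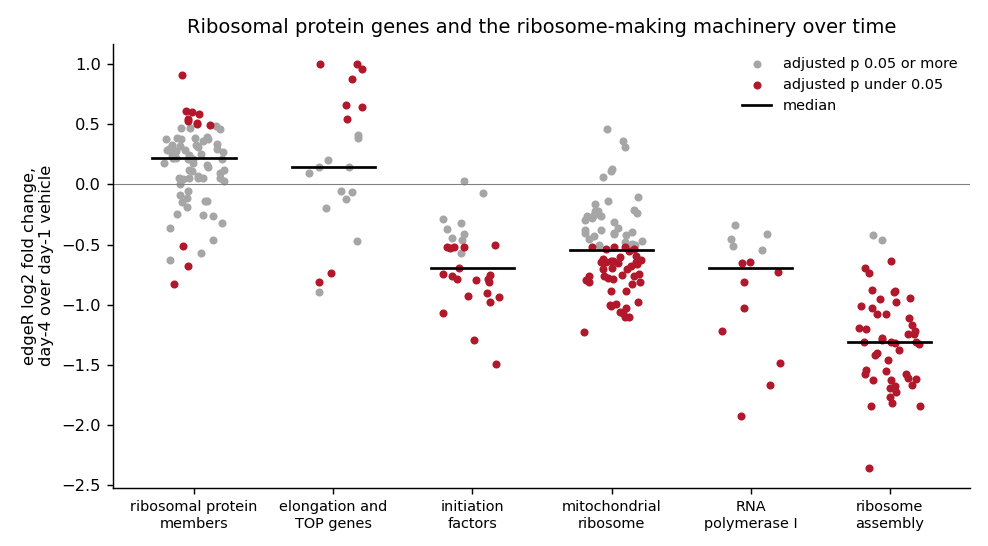
Each point is the edgeR log2 fold change of 1 gene, day-4 over day-1 vehicle, red where the adjusted p is under 0.05 and grey otherwise, with black lines at the medians. The members lie around a median of 0.22, the elongation and TOP genes around 0.15, and the ribosome assembly genes around -1.31.

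Among the day-4 libraries these lists differed as follows. Under retinoic acid, against vehicle, 35 of 49 assembly genes at 10 or more CPM were at least 1.5-fold lower, with a median log2 ratio of -0.69, as were 15 of 20 elongation and TOP genes, with a median of -0.74, against 20.9% of all genes. Pabpc1, the poly(A)-binding protein and itself a TOP gene, had 314 CPM under retinoic acid and 788 in vehicle, a log2 ratio of -1.32. Npm1, the nucleolar chaperone nucleophosmin, had 557 and 1253 in the same order, a log2 ratio of -1.16. The mitochondrial ribosome differed less: 8 of 76 genes were 1.5-fold lower and the median was -0.21, near the -0.27 of all genes. Myc, a transcription factor that drives ribosome synthesis genes, had 8.60 CPM under retinoic acid, 19.0 under the RXR antagonist, 40.2 in vitamin A-free medium, 28.5 in day-4 vehicle, and 47.5 and 36.6 at day 1.

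Under the RXR antagonist, against vehicle, 14 of 49 assembly genes were 1.5-fold lower, against 15.4% of all genes, and 0 were higher, against 14.6%, with a median of -0.41, led by Gnl3, Gar1 and Dkc1 with log2 ratios of -0.90, -0.88 and -0.88. The list of initiation factors, which includes repressors and lacks those counted with the elongation and TOP genes, had a median of 0.21. In it 4 of 29 genes were at least 1.5-fold higher, a share close to the 14.6% of all genes. The largest was Eif4ebp1, the mTOR-controlled repressor of cap-dependent initiation, with 646 CPM under the RXR antagonist, 104 under retinoic acid, 271 in vitamin A-free medium, 236 in day-4 vehicle, and 255 and 270 at day 1. Its level was thus highest under the RXR antagonist and lowest under retinoic acid, with the other 4 libraries within 236 to 271.

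The ribosomal protein genes that the symbol rule leaves out were described beside the members. Of 7 of them apart from Rps3a1, 4 were at least 1.5-fold lower under retinoic acid than in vehicle, against 20.9% of all genes. Their median log2 ratio was -0.65, against -0.27 over all genes. Rack1, a scaffold protein of the 40S subunit, had 2611 CPM under retinoic acid and 4662 in vehicle, a log2 ratio of -0.84. Rpl22l1, a paralog of Rpl22, had 104 and 272 in the same order, a log2 ratio of -1.35, while its parent Rpl22 had 645 and 1403, a log2 ratio of -1.12. Fau, whose protein joins a ubiquitin-like part to a 40S protein, had 95.1 and 138, a log2 ratio of -0.51. Over time Fau rose (138 at day 4, against 90.1 and 88.0 at day 1, log2 fold change 0.81, SE 0.14, adjusted p = 0.00899 by edgeR). Rpl7l1, a 60S assembly factor related to Rpl7, fell by 0.80 on the log2 scale (105 at day 4, against 213 and 200 at day 1, SE 0.16, adjusted p = 0.0128 by edgeR), while Rpl7 did not pass the test (227 at day 4, against 194 and 196 at day 1, log2 fold change 0.40, SE 0.14, adjusted p = 0.0823).

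The members were last compared by the run of pyrimidines at their start. The 25 members with a run of 8 or more had a median log2 ratio of -0.99 for retinoic acid against vehicle, and 23 of them were 1.5-fold lower. The 32 without one had a median of -0.90, and all 32 were 1.5-fold lower. Over all genes the median was -0.27, and 20.9% were 1.5-fold lower. For the RXR antagonist both medians were -0.28. Rps27l, printed above with its run upstream of the start, and Rps27, with its run across it, had ratios of -0.18 and -0.75 under retinoic acid.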

How the data were processed

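Counts of UMIs per gene and cell were deposited by the authors for 6 libraries, without normalization, from 3′ droplet libraries per the labels' protocols. The submitters' processing notes list GRCm38, Cell Ranger 3.1.0 and bcl2fastq 2.17 without saying which did what. The deposited barcodes were taken as cells, and the highest doublet scores (Scrublet in scanpy 1.11.5) were removed at 0.8% per 1000 barcodes, since Scrublet's own threshold marked 0 to 67 barcodes per library. UMIs were summed per library and scaled to 1000000 (CPM). Ratios are log2 with a pseudocount of 5, and all genes means those at 10 or more CPM. Day 4 against day 1 was tested with edgeR 4.0.16 (quasi-likelihood, TMM, filterByExpr, adjusted p under 0.05), with DESeq2 1.42.0 as an alternative. Each SE is the absolute log2 fold change divided by the square root of the test's F statistic, and is not a separate estimate. Counts for day 4 against day 1 were also simulated, with 200 changed genes and the same dispersion for all genes. There edgeR recovered 84.4% of the 4-fold changes and 26.4% of the 2-fold ones. Far more genes were called in the data, so recovery in the data may differ. Clusters came from 2000 genes, 30 components and resolution 0.8, with no ribosomal protein gene, and classes of 50 or more cells were used. The lists, markers and members were chosen with earlier results of these data known. Named members are the 6 highest and 6 lowest ratios per comparison, the 5 highest and lowest levels, paralogs with parents, genes outside the rule and those at the threshold, and up to 4 genes per other list. Ncl, Mdm2, Rpl11, Rpl35, Rpl30 and the goblet-like extremes were named after their values were seen. Some members are counted but not reported by name here. P-values rest on the spread between the 2 day-1 libraries, which may be technical.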

Additional observations from a re-analysis of the deposited data

How the results depend on the processing

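No paired analysis was possible because the groups compared share no more than 1 replicate number. The scaling mattered most. For retinoic acid against vehicle, the members' median of -0.92 became -0.55 under TMM scaling and -0.51 under DESeq2 size factors, and the number 1.5-fold lower became 34 and 24, since these scalings moved the median of all genes from -0.27 to 0.082 and 0.13. For the RXR antagonist against retinoic acid the median became 0.35 and 0.31, with 4 and 3 members 1.5-fold higher, and for vitamin A-free medium 0.025 and 0.010. The distance from the median of all genes was -0.65 for retinoic acid as reported, and with no floor on the level of all genes it was -0.90, and 0.65 for the RXR antagonist against retinoic acid.

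For the RXR antagonist against vehicle, no member was 1.5-fold higher (0) with all barcodes kept, with cells weighted equally, with totals without the members, or without the paralogs. With a ratio of 5 to 4 as the threshold, 24 members were lower, and 4 were higher in vitamin A-free medium. With a floor of 50 CPM for members too, 0 were 1.5-fold lower. For day 4 against day 1, the median log2 ratio of 0.23 (TMM scaling, pseudocount added) became 0.040 with equal totals and 0.049 with totals without the members, with 1 member called higher and 6 lower in each; 20 of 56 were called higher with a floor of 50 CPM, where 32.6% of all genes were, 1 higher and 1 lower with no filter on low counts, and 1 lower without the paralogs. Leaving out a day-1 library gave 0.12 to 0.31, and 0.14 to 0.30 for the distance from all genes. With the ribosomal protein genes outside the rule included, the shares were 6.61%, 4.02%, 8.45%, 7.55%, 7.17% and 6.56% for the RXR antagonist, retinoic acid, vitamin A-free medium, day-4 vehicle and day-1 libraries 1 and 2. Including Rps3a1, or leaving out the 22 members that share 80% or more of their 3′ ends, were alternatives chosen after seeing the data. No called ratio changed sign. Members of low count, whose reads could be split among pseudogenes, limit what a low level shows.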
